A study of Rattus norvegicus with 10 samples.

Results

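The 10 genes that mark resident macrophages measured here in fetal rat hearts were chosen by symbol from the 18025 genes listed: Csf1r, Cx3cr1, Adgre1, Cd68, Cd163, Mrc1, Lyve1, C1qa, C1qb and C1qc. All 10 of the 10 were listed and all 10 passed the filter on low values. Messenger RNA was sequenced from hearts of wild-type fetuses at embryonic day 19.5, with 5 libraries from control pregnancies (CON) and 5 from hyperglycemic pregnancies (HG). The mothers were Sprague-Dawley rats given citrate buffer (CON) or streptozotocin (HG), a compound that destroys insulin-producing cells of the pancreas, so that every HG fetus was carried by a diabetic dam and the fetuses themselves were not injected. The study's methods place the injections after mating, that is, in early pregnancy, whereas its introduction speaks of hyperglycemia induced before pregnancy. The labels name heart tissue, and Myh6, a myosin gene of cardiomyocytes, lay between 190 and 476 FPKM in every library. The question asked of these genes was whether macrophage transcripts differed between the hearts of the 2 groups. Neither the labels nor the study's methods say whether the fetuses of a group came from separate litters, and p-values therefore measure only the spread between these libraries.

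Macrophages settle in the heart before birth, from yolk sac and later from fetal liver precursors, and stay there as phagocytes that clear dying cells and debris. Their survival depends on the receptor CSF1R, whose ligands CSF1 and IL34 are made by neighbouring cells. Resident heart macrophages are known for scavenger and endocytic receptors such as CD163, MRC1 and LYVE1, and they are a main source of the complement component C1q, which is built from 3 chains.

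In brief, 3 of the 10 genes rose in HG, Adgre1, Cd68 and C1qa, and 1 fell, Cd163. The call of C1qa was lost under other scalings. The other 6 genes were not called different. The directions were therefore mixed within the set, with Adgre1 2.20 times as high in HG as in CON and Cd163 4.60 times as high in CON as in HG by the ratio of mean levels. Cells were not separated, and a change in the number of macrophages and a change in RNA per macrophage cannot be told apart in these libraries.

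Levels are FPKM, fragment numbers scaled to gene length and library size. The 14542 genes averaging 0.1 FPKM or more were tested with limma on log2(FPKM + 0.1), with Benjamini-Hochberg adjustment over all of them, and a gene was called at an adjusted p under 0.05. On this scale the change of a weakly expressed gene is understated. The library totals behind the values were 17647158 to 18247127 in CON and 16680028 to 19118401 in HG. Calls were frequent in this comparison. Of all genes tested, 28.4% were called higher in HG and 11.8% lower, so that 3 and 1 of 10 are shares near this background and are not a result about the set. The median log2 fold change was 0.17 over the 10 genes and 0.09 over all genes tested. Another scaling changed the split of all calls: 70.7% of them were higher in HG with FPKM as deposited, 47.1% with median-of-ratios factors and 53.0% with quantile normalization. The median of all genes was 0.01 with the former and 0.02 with the latter, and that of the 10 genes was 0.08 with each.

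The stretches before the start of the 3 genes with the largest changes are shown for orientation, as listed by RefSeq for build GRCr8 in the direction of the gene. The deposited values rest on another build, mRatBN7.2, and no coordinate was carried between the builds. Each run holds the 250 bases before the annotated start, at chr9:2329190-2329439 (plus strand) for Adgre1, chr10:54882442-54882691 (minus strand) for Cd68 and chr4:158770524-158770773 (plus strand) for Cd163. Capitals mark GAGGAA, the core recognised by the macrophage transcription factor PU.1, or its reverse complement TTCCTC.
Adgre1: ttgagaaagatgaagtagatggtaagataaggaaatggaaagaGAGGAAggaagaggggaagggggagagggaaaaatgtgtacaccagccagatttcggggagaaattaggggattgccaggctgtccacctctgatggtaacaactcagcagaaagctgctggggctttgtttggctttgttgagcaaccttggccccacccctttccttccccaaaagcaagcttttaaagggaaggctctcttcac
Cd68: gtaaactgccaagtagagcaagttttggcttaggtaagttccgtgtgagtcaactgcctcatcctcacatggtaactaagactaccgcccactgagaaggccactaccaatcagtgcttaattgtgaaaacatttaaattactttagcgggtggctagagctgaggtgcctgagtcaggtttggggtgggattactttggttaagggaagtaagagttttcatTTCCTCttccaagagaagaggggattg
Cd163: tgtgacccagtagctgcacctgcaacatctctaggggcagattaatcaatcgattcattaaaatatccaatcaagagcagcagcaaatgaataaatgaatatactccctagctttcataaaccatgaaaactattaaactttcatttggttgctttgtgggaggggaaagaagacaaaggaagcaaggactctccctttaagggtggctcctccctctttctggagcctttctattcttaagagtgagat
These letters stood in the window of 5 of the 9 members with a promoter in the table, namely Csf1r, Adgre1, Cd68, Mrc1 and C1qb, and in 23.3% of the 33469 windows of this length in the table. Cx3cr1, Cd163, Lyve1 and C1qa had no match, which says only that these letters are not in this window. C1qc had no entry.

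Adgre1 (NCBI Gene 316137) encodes the rodent macrophage surface protein F4/80, an adhesion G protein-coupled receptor. It was measured at 0.374, 0.489, 0.593, 0.643 and 0.574 FPKM in CON 1 to 5 and at 0.838, 1.09, 1.42, 1.10 and 1.44 FPKM in HG 1 to 5. Every HG library lay above every CON library. It averaged 0.535 ± 0.106 FPKM over the control hearts and 1.18 ± 0.254 FPKM over the HG hearts (SD, n = 5 each). The log2 fold change was 1.00 (SE 0.170, limma, 95% interval 0.63 to 1.37, adjusted p = 0.000661). These values rest on few reads, 22 to 38 in a CON and 52 to 80 in an HG library.

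Cd68 (NCBI Gene 287435) encodes a lysosomal glycoprotein that is abundant in phagocytes. Its level was 2.76, 2.69, 2.60, 1.92 and 2.26 FPKM in CON 1 to 5 and 3.27, 3.76, 4.51, 4.29 and 2.95 FPKM in HG 1 to 5. All HG libraries again exceeded all CON libraries, with HG 5 the closest to them. The mean rose from 2.45 ± 0.351 to 3.76 ± 0.662 FPKM (SD, n = 5 each), a log2 fold change of 0.59 (SE 0.131, limma, 95% interval 0.31 to 0.88, adjusted p = 0.00358).

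Cd163 (NCBI Gene 312701) encodes the receptor through which macrophages take up haptoglobin-hemoglobin complexes. It was measured at 0.965, 0.580, 0.874, 0.468 and 0.715 FPKM in CON 1 to 5 and at 0.120, 0.0751, 0.0265, 0.300 and 0.262 FPKM in HG 1 to 5. The groups did not overlap, and the highest HG library, HG 4, lay below the lowest CON library, CON 4. The log2 fold change was -1.77 (SE 0.312, limma, 95% interval -2.45 to -1.09, adjusted p = 0.000865), from 0.720 ± 0.204 down to 0.157 ± 0.119 FPKM (SD, n = 5 each). The reads numbered 37 to 76 in CON and 2 to 23 in HG libraries, so that the size of the decrease is imprecise. It was -0.57 with a pseudocount of 1 FPKM and -2.52 when limma's voom was run on reads recovered from the FPKM, and the call held in both.

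**Figure D1:**
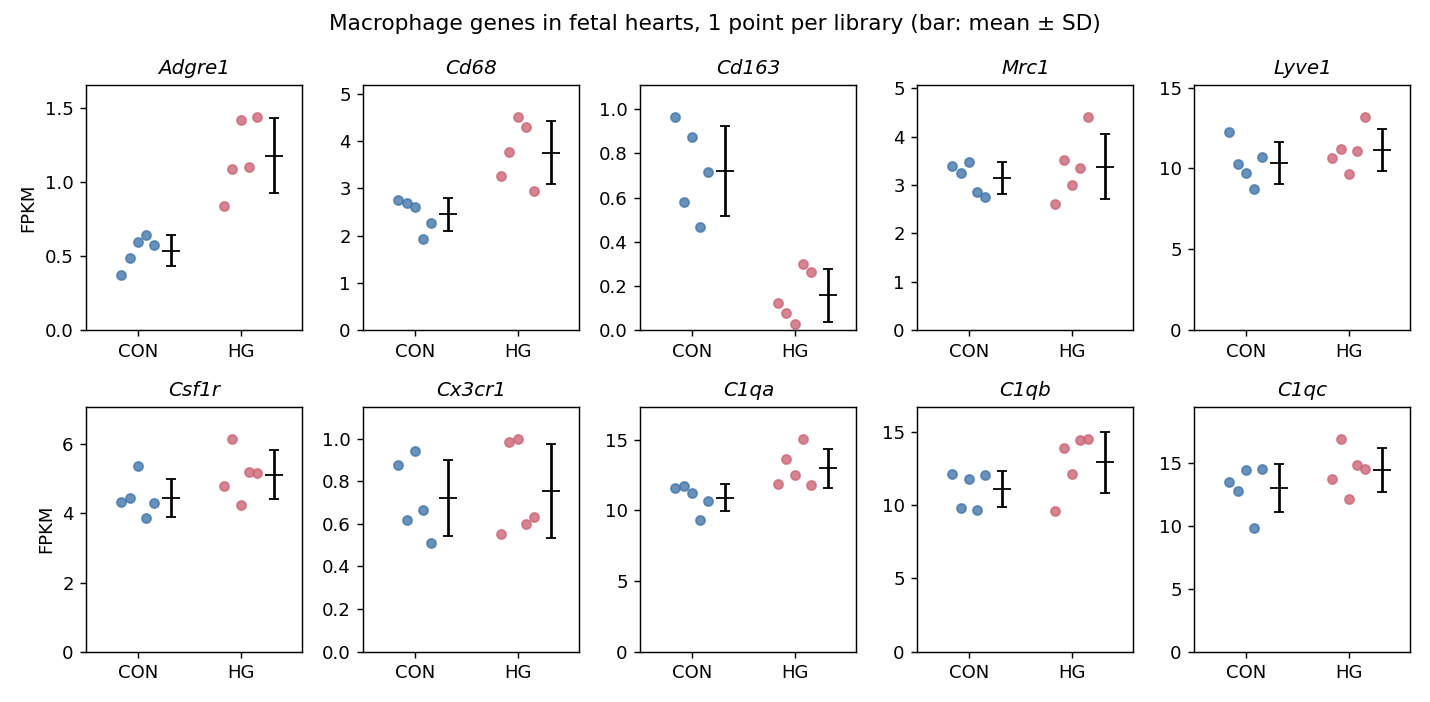
FPKM (y axis, linear, starting at 0 in each panel) of the 10 macrophage genes in 5 CON and 5 HG libraries, 1 point per library, with the mean and SD beside them. Adgre1 and Cd68 lie higher and Cd163 lower in every HG library than in any CON library, while the points of Cx3cr1, Mrc1 and Lyve1 overlap.

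C1qa, C1qb and C1qc encode the 3 chains of C1q, which recognises immune complexes and dying cells, and they are direct neighbours in the gene order of the GRCr8 annotation. C1qa (NCBI Gene 298566) was measured at 11.6, 11.8, 11.3, 9.32 and 10.7 FPKM in CON 1 to 5 and at 11.9, 13.7, 12.5, 15.1 and 11.8 FPKM in HG 1 to 5. The groups did not overlap, but only narrowly, since the lowest HG and the highest CON library both round to 11.8 FPKM. The mean rose from 10.9 ± 0.983 to 12.99 ± 1.39 FPKM (SD, n = 5 each), a log2 fold change of 0.25 (SE 0.0806, limma, 95% interval 0.07 to 0.42, adjusted p = 0.0277). This call was lost with median-of-ratios factors (log2 fold change 0.16, limma adjusted p = 0.180) and with quantile normalization (0.16, adjusted p = 0.169). It was also lost without CON 4 (adjusted p = 0.0630), without CON 5 (0.0530), without HG 2 (0.0609) and without HG 4 (0.0613).

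C1qb (NCBI Gene 29687) reached 12.1, 9.81, 11.8, 9.68 and 12.1 FPKM in CON and 9.56, 13.9, 12.1, 14.4 and 14.5 FPKM in HG, with the lowest value of all in HG 1. Its log2 fold change was 0.21 (95% interval -0.04 to 0.45, limma adjusted p = 0.171), and without HG 1 it was 0.31 with an adjusted p of 0.0165. C1qc (NCBI Gene 362634) lay between 9.82 and 14.5 FPKM in CON and between 12.2 and 16.9 FPKM in HG (log2 fold change 0.16, 95% interval -0.08 to 0.39, limma adjusted p = 0.280). The proportions of the chains within a library were compared next. C1qb over C1qa averaged 1.02 ± 0.110 over CON and 0.995 ± 0.154 over HG libraries (SD, n = 5 in both groups, two-sided exact permutation test, p = 0.738). C1qc over C1qa was 1.19 ± 0.131 and 1.12 ± 0.130 (exact permutation p = 0.381), and C1qc over C1qb was 1.17 ± 0.110 and 1.14 ± 0.190 (exact permutation p = 0.683). These 3 tests did not detect a difference, which does not show that the proportions are equal.

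Csf1r (NCBI Gene 307403), the receptor for CSF1 and IL34, was measured at 4.33, 4.44, 5.36, 3.87 and 4.29 FPKM in CON 1 to 5 and at 4.80, 6.16, 4.24, 5.21 and 5.18 FPKM in HG 1 to 5. The groups overlapped, and 4 of the 5 HG libraries lay above the CON mean. The log2 fold change was 0.19 (SE 0.104, 95% interval -0.03 to 0.42, limma adjusted p = 0.163). Cx3cr1 (NCBI Gene 171056), the fractalkine receptor of monocytes and of some resident macrophages, lay between 0.511 and 0.940 FPKM in CON and between 0.552 and 1.00 FPKM in HG. Its log2 fold change was 0.05 (95% interval -0.39 to 0.48, limma adjusted p = 0.878) on 12 to 24 reads per library, a depth at which a moderate change in either direction was not detectable.

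Mrc1 (NCBI Gene 291327) encodes the mannose receptor, and Lyve1 (NCBI Gene 293186) a hyaluronan receptor that lymphatic endothelium carries as well. Mrc1 was measured between 2.74 and 3.48 FPKM in CON and between 2.61 and 4.41 FPKM in HG, with both extremes in HG libraries (log2 fold change 0.09, 95% interval -0.18 to 0.36, limma adjusted p = 0.615). Lyve1 lay between 8.73 and 12.3 FPKM in CON and between 9.63 and 13.2 FPKM in HG (log2 fold change 0.11, 95% interval -0.10 to 0.31, limma adjusted p = 0.391). Over the 6 uncalled genes, the log2 fold changes ranged from 0.05 to 0.21 and their 95% intervals reached from -0.39 to 0.48. The values of 9 of the 10 genes were above 0, but those of Cx3cr1 and Mrc1 turned below 0 with median-of-ratios factors and with quantile normalization.

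**Figure D2:**
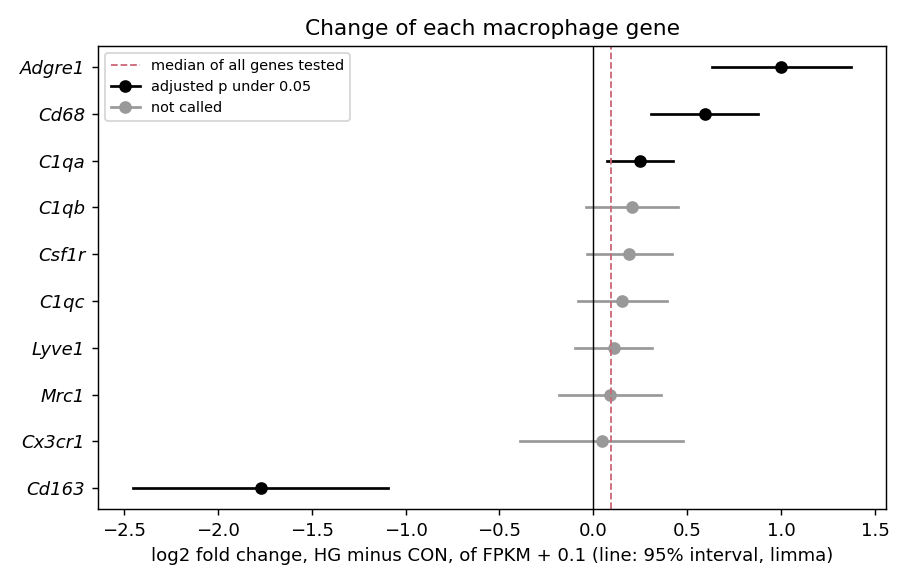
Log2 fold change, HG minus CON, of FPKM + 0.1 (x axis) for each of the 10 genes, with the 95% interval from limma as a line, black where the gene was called. Adgre1, Cd68 and C1qa lie to the right of 0 and Cd163 to the left, and the dashed line marks the median of all genes tested, 0.09.

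The groups did not overlap for 4 of the 10 genes, Adgre1, Cd68, C1qa and Cd163, against 27.4% of all genes tested. The study's own threshold adds an absolute log2 fold change above 1. Adgre1, at 1.00, was just past it and Cd163 clearly past it, 2 of 10 genes against 1.94% of all genes tested. Adgre1 fell to the other side of that threshold at 0.92 with median-of-ratios factors, and without CON 1 (0.90), CON 2 (0.98), HG 3 (0.93) or HG 5 (0.93), while its adjusted p stayed below the limit.

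By mean FPKM, a scale per gene length, the order in CON ran from C1qc, C1qb, C1qa and Lyve1, at 12.99 to 10.3 FPKM with overlapping ranges between neighbours, through Csf1r at 4.46 ± 0.551 FPKM, to Mrc1 and Cd68, and last to Cx3cr1, Cd163 and Adgre1, whose ranges overlapped. In HG the 4 most abundant genes were the same, and Csf1r, Cd68 and Mrc1 followed with overlapping ranges. Adgre1 stood last in CON and eighth in HG, and Cd163 ninth in CON and last in HG, where its range no longer overlapped that of Cx3cr1. Library CON 4 had the lowest level of its group in 7 of the 10 genes, and the FPKM of the 10 genes summed to 48.0 in it against 56.7 to 62.1 in the other CON libraries and 58.0 to 71.3 in HG.

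The level relative to Csf1r in the same library compares members with each other, so that a factor common to both genes of a library cancels. Of the 9 ratios tested, those of Adgre1 and Cd163 did not overlap between groups. Adgre1 over Csf1r averaged 0.121 ± 0.0301 over CON and 0.235 ± 0.0698 over HG libraries, and Cd163 over Csf1r 0.161 ± 0.0401 and 0.0303 ± 0.0229 (SD, n = 5 in both groups). Each had p = 0.00794 in a two-sided exact permutation test, the smallest that 5 libraries against 5 allow. Adjusted over the 9 ratios (Benjamini-Hochberg), p was 0.0357 for both. Cd68 over Csf1r was 0.551 ± 0.0681 in CON and 0.750 ± 0.201 in HG with overlapping groups (exact permutation p = 0.0397, adjusted p = 0.119). The ratios of Cx3cr1, Mrc1, Lyve1 and the 3 C1q chains did not differ beyond the spread, with exact permutation p between 0.413 and 0.841, and that of C1qa was 2.46 ± 0.232 in CON and 2.56 ± 0.341 in HG.

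**Figure D3:**
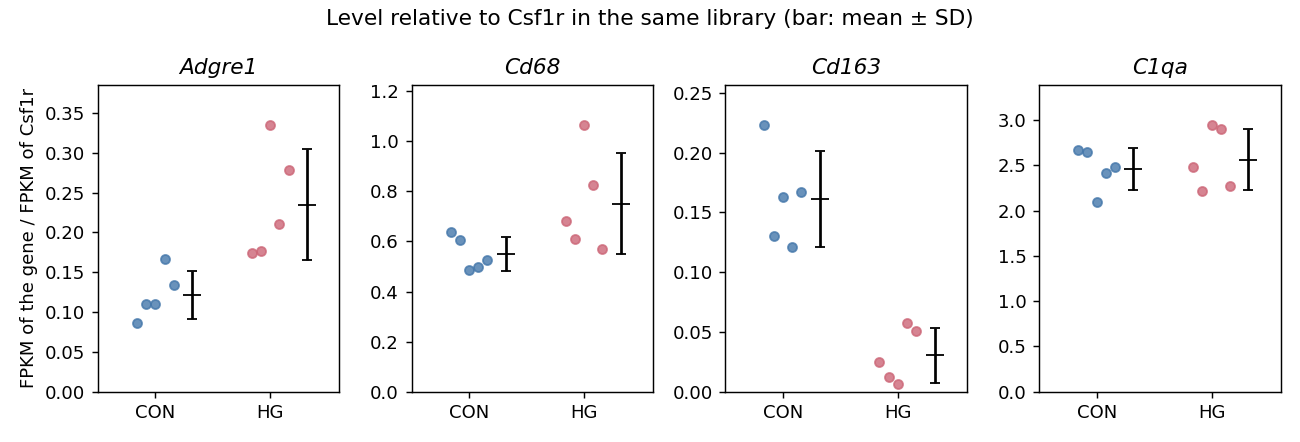
FPKM of a gene divided by FPKM of Csf1r in the same library (y axis, linear, starting at 0), 1 point per library, with mean and SD, for Adgre1, Cd68, Cd163 and C1qa. Adgre1 is higher and Cd163 lower in all 5 HG libraries, and Cd68 and C1qa overlap between groups.

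Among ligands and partners of these receptors, 0 of 11 tested genes were called in either direction by limma (2 higher and 0 lower at an unadjusted p under 0.05, and 1 higher by voom on recovered reads), with a median log2 fold change of 0.09. Beside the counts of this and each further list stand the shares over all genes tested, 28.4% called higher and 11.8% lower. No set test was run. Csf1 and Il34, the CSF1R ligands, averaged 3.70 ± 0.438 and 0.530 ± 0.0468 FPKM over CON and 3.92 ± 0.347 and 0.466 ± 0.0723 FPKM over HG libraries (SD, n = 5 in both groups), and Cx3cl1, the ligand of CX3CR1, was 5.72 ± 0.485 and 5.83 ± 0.404 FPKM; these 3 are named for their role. The smallest adjusted p belonged to Has2, which makes the hyaluronan that LYVE1 binds (log2 fold change 0.32, limma adjusted p = 0.0528), then to Hp, the haptoglobin gene (0.36, adjusted p = 0.0850), and C1s (0.52, adjusted p = 0.138). Has2 was called without HG 4 (adjusted p = 0.00731) and Hp without CON 5 (0.0212). Has2 was also called with a pseudocount of 1 (0.0476), the filter at a mean of 1 FPKM (0.0480), array weights (0.0371) and voom (0.0442). Among macrophage transcription factors, 0 of 11 tested genes were called by limma (0 higher and 1 lower at an unadjusted p under 0.05, 0 by voom), with a median of 0.05. Spi1, which encodes PU.1 and is named for its role, was 0.361 ± 0.0729 FPKM in CON and 0.471 ± 0.140 in HG (log2 fold change 0.30, limma adjusted p = 0.238). The lowest adjusted p there were those of Cebpa (-0.35, 0.0808), Cebpb (-0.29, 0.121) and Maf (0.32, 0.122). Each of them was called without 1 library, Cebpa without HG 4 (0.0113), Cebpb without HG 2 (0.0409) and Maf without HG 1 (0.0451). Cebpa was also called with median-of-ratios factors (0.0474), and Cebpb with the replicate number as a block (0.0465).

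Among 22 tested genes of a further list of macrophage markers, 4 rose, 0 fell (limma; 0 lower also at an unadjusted p under 0.05 and by voom) and the median log2 fold change was 0.25. These 4 of 22 stand below the 28.4% of all genes tested that were called higher. Mertk, a receptor for the uptake of dying cells, rose from 0.460 ± 0.0266 to 0.795 ± 0.145 FPKM (log2 fold change 0.66, limma adjusted p = 0.00208), Stab1, a scavenger receptor that endothelium also makes, from 9.34 ± 1.22 to 12.3 ± 1.31 FPKM (0.39, adjusted p = 0.00677), and Msr1, a scavenger receptor, from 0.850 ± 0.261 to 1.33 ± 0.331 FPKM (0.59, adjusted p = 0.0324; SD, n = 5 each). The other call was Folr2, named after its values were seen (0.62, limma adjusted p = 0.0365). The call of Msr1 was lost without CON 1, CON 2, CON 5, HG 2, HG 3 or HG 4 (adjusted p 0.0614 to 0.0782), and that of Folr2 without CON 4, CON 5, HG 3 or HG 5 (0.0785 to 0.0861). Folr2 also lost its call with voom, no filter, median-of-ratios factors and the replicate number as a block (0.0525 to 0.0678). Vsig4, Marco and Ms4a7 lay under the filter, Vsig4 with 0.134 ± 0.0651 FPKM over CON and 0.0393 ± 0.0273 over HG libraries. Marco averaged 0.0454 ± 0.0559 and 0 FPKM, and Ms4a7 0.0501 ± 0.0362 and 0.00649 ± 0.0145 FPKM. Each of them had the lower mean in HG, on 0 to 6 reads per library. The count of 0 falls therefore covers only the tested genes. FPKM of the list summed to 87.3 to 93.9 in CON and 87.1 to 98.0 in HG libraries, and these ranges overlapped. The largest parts, named after their values were seen, were Lgmn (37.5 ± 2.86 FPKM in CON, 34.6 ± 2.84 in HG) and Pf4 (16.4 ± 3.00 and 13.9 ± 2.97). Both were uncalled with log2 fold changes below 0, whereas those of 17 of the 22 tested genes were above 0. Of 20 tested genes of the lysosome, 10 rose and 4 fell (median 0.14), beside 28.4% and 11.8% of all genes tested. The called genes included Acp5, a phosphatase of macrophages and osteoclasts (log2 fold change 0.97, limma adjusted p = 6.79e-06), Npc2, which carries cholesterol (0.34, adjusted p = 0.000159), and Ctsd, a protease (-0.29, adjusted p = 0.000683). Lamp1 and Psap, which also fell, are named after their values were seen. Lysosomes are in every cell type of the heart.

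Markers of other leukocytes were read beside the macrophage genes. Among lymphocyte genes, Cd3e, Cd3d, Cd3g, Ms4a1, Klrb1a and Gzma lay under the filter, 0 of 5 tested genes were called by limma, at an unadjusted p under 0.05 or by voom (median 0.03), and the smallest adjusted p were those of Cd79a (-0.46, limma adjusted p = 0.249), Cd4 (0.07, 0.729) and Cd79b (0.10, 0.838). FPKM of the list summed to 2.35 to 3.88 in CON and 2.68 to 3.27 in HG. Among genes of all leukocytes, 2 of 12 rose and 2 fell (median 0.14), with Ptprc, the pan-leukocyte gene CD45, named for its role, with 0.337 ± 0.145 FPKM over CON and 0.443 ± 0.0727 over HG libraries (log2 fold change 0.36, limma adjusted p = 0.205). Cd52 fell most, from 10.8 ± 3.82 to 4.27 ± 0.515 FPKM (-1.26, adjusted p = 0.000418), Rac2 fell from 11.5 ± 1.08 to 9.0 ± 0.770 FPKM (-0.35, adjusted p = 0.00313), and Cd48 (0.15, adjusted p = 0.0174) and Cd37, the latter named after its values were seen (0.65, adjusted p = 0.0448), rose. The call of Cd37 was lost without CON 2, CON 3, CON 4, CON 5, HG 3, HG 4 or HG 5 (adjusted p 0.0713 to 0.110), and that of Cd48 with median-of-ratios factors (0.323) and quantile normalization (0.139). Cd37 also lost its call with voom and under other scalings, no filter and the replicate number as a block (0.0509 to 0.0837). The list summed to 64.6 to 71.4 FPKM in CON and 62.9 to 66.4 in HG. Most of this sum was Cd48, at 35.8 ± 1.70 FPKM in CON and 39.6 ± 1.69 in HG.

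Monocyte and MHC class II genes held 1 rise and 2 falls among 8 tested (median -0.11). Cd74, the invariant chain that escorts MHC class II, fell from 2.32 ± 0.501 to 0.665 ± 0.288 FPKM (SD, n = 5 each, log2 fold change -1.74, limma adjusted p = 0.000327), with all HG libraries below all CON libraries. RT1-Ba, a class II chain, was -0.94 (adjusted p = 0.0440) and RT1-DMb 0.42 (adjusted p = 0.0463), and reads of the RT1 genes can be split among similar copies. RT1-Ba averaged 0.197 ± 0.119 FPKM over CON and 0.0508 ± 0.0501 over HG libraries, and passed the filter only through CON. It rested on 1 to 7 reads in CON and 0 to 2 in HG libraries, so that its call carries little weight. The call of RT1-Ba was lost without CON 1, CON 2, CON 4, HG 1, HG 4 or HG 5 (adjusted p 0.0644 to 0.107), and that of RT1-DMb without any 1 library other than HG 4 (0.0637 to 0.104). RT1-Ba also lost its call with voom, both other pseudocounts, array weights and the replicate number as a block (0.0514 to 0.0845). Ccr2, Ciita and RT1-Bb lay under the filter, with Ccr2, the receptor of monocytes recruited from blood, averaging 0.0266 ± 0.0183 FPKM over CON and 0.0330 ± 0.0203 over HG libraries. The list summed to 15.2 to 19.0 FPKM in CON and 15.3 to 19.4 in HG. Its largest parts were RT1-DMb, at 5.97 ± 0.415 FPKM in CON and 8.24 ± 2.10 in HG, and RT1-DMa, at 5.24 ± 0.929 and 4.80 ± 0.618. RT1-DMa is named after its values were seen. The similar sums therefore do not show that the genes of the list were unchanged.

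Of 9 tested granulocyte and mast cell genes, 0 rose (limma; 0 also at an unadjusted p under 0.05 and by voom) and 3 fell, with a median of -0.61, and FPKM summed to 12.9 to 14.2 in CON and 7.58 to 11.3 in HG. Most of this sum was Kit, and the other 13 listed genes summed to 3.76 to 5.91 FPKM in CON and 1.45 to 4.61 in HG, which overlap. Csf3r, Tpsab1, Tpsb2 and Cma1 passed the filter only through CON, which in part fixes the counts and the median of this list. The median was the value of Cma1, at 0.228 ± 0.238 FPKM in CON and 0.0937 ± 0.0806 in HG. Csf3r, Tpsb2 and Cma1 are named after their values were seen. Kit, which mast cells, blood precursors and other cells express, fell from 8.83 ± 0.398 to 6.23 ± 0.360 FPKM (SD, n = 5 each, log2 fold change -0.50, limma adjusted p = 4e-05), S100a9, a neutrophil calcium-binding protein, was -1.33 (adjusted p = 0.0140) and Tpsab1, a mast cell tryptase, -1.04 (adjusted p = 0.0351). The call of Tpsab1 was lost without CON 1, CON 4, CON 5, HG 1, HG 2, HG 3 or HG 5 (adjusted p 0.0557 to 0.0866), and with a pseudocount of 1 (0.0675). Tpsab1 rested on 2 to 7 reads in CON and 0 to 5 in HG libraries, so that its call carries little weight. The defining genes Mpo, Elane, Mmp8, Cpa3 and Ms4a2 lay under the filter. The part of these cells in the results of the 10 genes was not tested.

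Red cell precursors are nursed by resident macrophages in blood-forming tissue. Of 10 tested, 0 rose (limma; 0 also at an unadjusted p under 0.05 and by voom) and 6 fell (median -0.60), beside 28.4% and 11.8% of all genes tested. FPKM of the list summed to 64.2 to 115 in CON and 42.6 to 60.9 in HG, without overlap. Hemgn (log2 fold change -0.96, limma adjusted p = 0.00189), Slc4a1, the band 3 anion exchanger of red cells (-0.56, adjusted p = 0.00425), and Ahsp, which stabilises alpha hemoglobin (-0.73, adjusted p = 0.00758), had the smallest adjusted p. Cd163, the receptor for hemoglobin complexes, was lower in the same 5 libraries, and the part of red cell precursors in that result was not tested. Of 12 genes for the uptake and recycling of red cell iron, 3 rose and 2 fell (median -0.04), with Lrp1, the receptor for heme bound to hemopexin, at 0.37 (limma adjusted p = 0.000305), Hmox1, the heme oxygenase, at -0.45 (adjusted p = 0.00602) and Tfrc, the transferrin receptor, at 0.45 (adjusted p = 0.0255). The other calls, named after their values were seen, were Blvra, which was higher, and Slc48a1, which was lower. The call of Tfrc was lost without CON 1, CON 2, CON 4, HG 1 or HG 5 (adjusted p 0.0511 to 0.0635).

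Because Lyve1 and Stab1 are made by lymphatic endothelium, its 8 genes were read beside them, and 2 rose and 2 fell (median -0.14), with Pdpn at 0.47 (limma adjusted p = 7.37e-05), Mmrn1 at -1.45 (adjusted p = 0.00255), Flt4 at 0.31 (adjusted p = 0.00801) and Ccl21 at -1.34 (adjusted p = 0.010). The list summed to 40.0 to 46.3 FPKM in CON and 41.3 to 45.3 in HG. Its largest parts were Pdpn, at 11.6 ± 0.971 FPKM in CON and 16.1 ± 0.567 in HG, and Prox1, at 9.96 ± 0.758 and 8.93 ± 1.14 (SD, n = 5 each). Prox1 is named after its values were seen. As the list held calls in both directions, similar sums do not show that its genes were unchanged. Of 9 genes of blood vessel endothelium, 3 rose and 0 fell (median 0.07), Emcn, Tie1 and Esam, at log2 fold changes of 0.29, 0.20 and 0.13 (limma adjusted p = 0.00278, 0.00970 and 0.0415; 0 lower also at an unadjusted p under 0.05 and by voom). With median-of-ratios factors the calls of Tie1 (0.11, adjusted p = 0.151) and Esam (0.04, adjusted p = 0.586) were lost. The call of Esam was also lost without any 1 library other than CON 1, CON 3 or HG 4 (adjusted p 0.0501 to 0.0971). Of 6 fibroblast genes, 2 rose, Tcf21 (0.25, adjusted p = 0.00139) and Pdgfra (0.29, 0.00449), and 2 fell, Dcn (-0.22, 0.0139) and Lum, the latter named after its values were seen. Of 8 cardiomyocyte genes, 1 rose, Nppa, named after its values were seen, and 6 fell (median -0.30), with Myh6, the alpha myosin heavy chain, at -1.03 (limma adjusted p = 1.97e-06), Ryr2 at -0.62 (adjusted p = 7.94e-05) and Mybpc3 at -0.35 (adjusted p = 0.000157). FPKM of the cardiomyocyte list summed to 21438 to 22722 in CON and 18584 to 22118 in HG, and FPKM of all other genes are relative to such abundant transcripts. The part of this in the results of the 10 genes was not tested.

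Of 15 tested inflammatory cytokines and enzymes, 1 rose and 1 fell (median 0.19). Tgfb1 rose from 19.1 ± 1.02 to 21.9 ± 2.19 FPKM (SD, n = 5 each, log2 fold change 0.19, limma adjusted p = 0.0403), and Cxcl1 was 0.287 ± 0.177 FPKM in CON and 0.0971 ± 0.0356 in HG (-0.87, adjusted p = 0.0353), while Igf1 was 4.79 ± 0.719 and 6.29 ± 1.40 FPKM (0.37, adjusted p = 0.0625). Cxcl1 passed the filter only through CON, on 2 to 8 reads in CON and 1 to 2 in HG libraries. The call of Tgfb1 was lost without any 1 library other than CON 1 or HG 5 (adjusted p 0.0525 to 0.0984), that of Cxcl1 without CON 1, CON 5, HG 1 or HG 4 (0.0706 to 0.0899), and Igf1 was called without CON 2 (0.0486) or HG 1 (0.0135). The call of Cxcl1 was also lost with voom, a pseudocount of 1 and the replicate number as a block (0.0506 to 0.0818). Igf1 was also called with voom (0.0393) and with Y-linked genes as a covariate (0.0444). Tnf, averaging 0.0661 ± 0.0931 FPKM over CON and 0.205 ± 0.130 over HG libraries, was not called and is named after its values were seen. Tnf passed the filter only through HG, on 0 to 6 reads in CON and 3 to 11 in HG libraries. The list summed to 25.3 to 30.5 FPKM in CON and 31.8 to 35.1 in HG, most of it from Tgfb1 and Igf1, and its other 16 listed genes summed to 3.51 to 5.57 and 4.23 to 5.77 FPKM, which overlap.

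**Figure D4:**
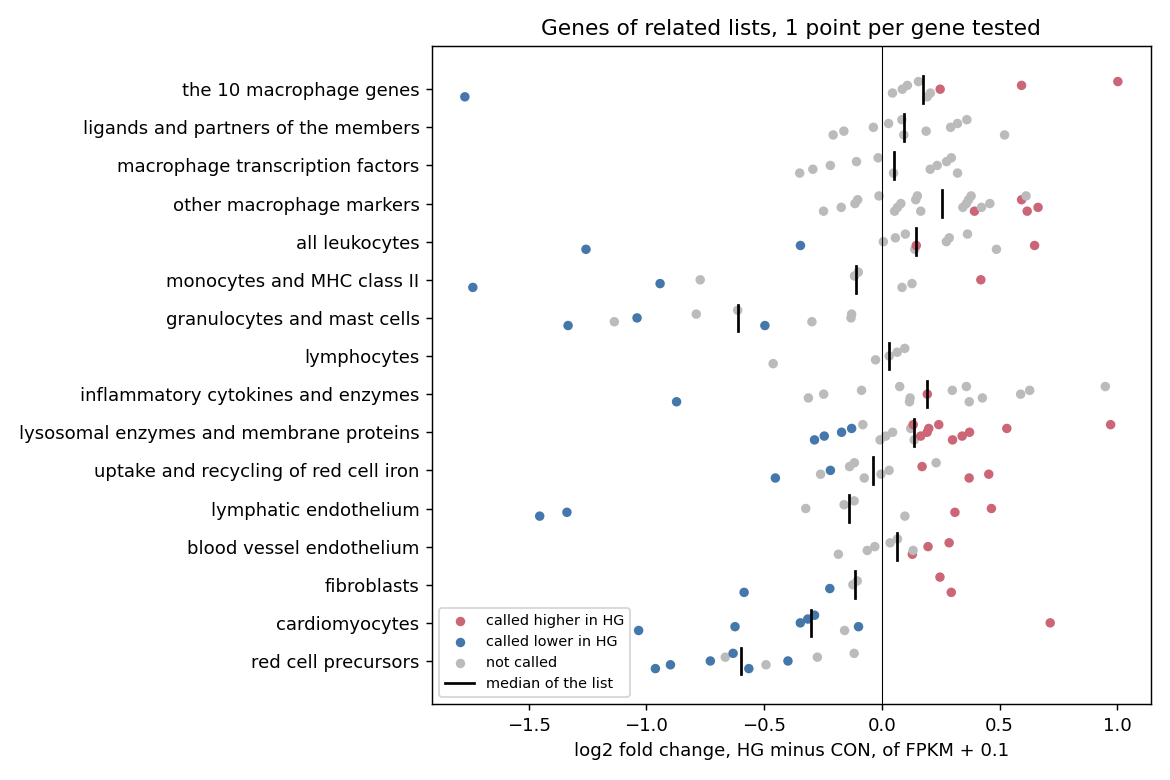
Log2 fold change, HG minus CON, of FPKM + 0.1 (x axis) for every tested gene of the 10 macrophage genes and 15 related lists (y axis), 1 point per gene, coloured by limma call, with the median of each list as a bar. The macrophage genes spread from -1.77 to 1.00 around a median of 0.17, and the red cell precursor and granulocyte lists have medians of -0.60 and -0.61. In part the granulocyte median is fixed by the filter, which some genes of that list passed only through CON.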

How the data were processed

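Stranded mRNA libraries of fetal hearts (5 CON, 5 HG) were analysed from the FPKM that the authors deposited, read numbers scaled by gene length and library size. The submitters' processing notes name fastp, HISAT2, HTSeq, R 3.2.0 and build mRatBN7.2, without their roles. The Methods speak of pooled RNA and a legend of isolated cardiomyocytes, whereas the deposited columns differ between libraries and the labels name heart tissue. No per-sample column was left unused (0). Sequencing reads were not analysed here.

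The log2(FPKM + 0.1) of genes averaging 0.1 FPKM or more was tested with limma 3.58.1 (trend, no covariate) in R 4.3.3, with Benjamini-Hochberg adjustment over these 14542 genes. The 3483 genes under the filter were not tested. The count method of the study was not used, since the values are FPKM. Reads were recovered from the steps between FPKM values (whole within 0.02 reads in every library for 99.967% of genes, 18019 of 18025) and run through voom as an alternative. At this depth, Cx3cr1 rested on 12 to 24 reads per library. For ratios between genes, exact permutation tests (two-sided) were run. Python 3.11.15, numpy 2.4.6, pandas 2.3.3, scipy 1.17.1 and matplotlib 3.10.9 were used, and the model was tested on simulated data.

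The members and gene lists were chosen with earlier results of these data known, and membership of a list is no independent evidence. Named by rule were the 10 genes, at most 3 tested genes per list with the smallest adjusted p, those past the study's threshold, defining genes under the filter, and the 5 genes nearest in pattern. Other names are marked. A few genes of the lists are counted but not reported here by name. Settings varied were the pseudocount (1, 0.01), the filter (none, a mean of 1 FPKM), the scaling (quantile normalization, median-of-ratios factors, globins left out), a block on replicate number, a covariate for Y-linked genes, array weights, voom, and each library left out.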

Additional observations from a re-analysis of the deposited data

How the results depend on the processing

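Adgre1, Cd68 and Cd163 were called in the same direction under all alternatives in which they were tested (20, 21 and 20), with log2 fold changes of 0.50 to 1.12, 0.46 to 0.67 and -2.52 to -0.57 and limma adjusted p of 0.000469 to 0.00240, 0.00182 to 0.0143 and 0.000450 to 0.00461. The number of the 10 genes called higher, 3, lay between 2 and 4 over the alternatives. The number called lower, 1, was 0 with the filter at a mean of 1 FPKM, which leaves out Cd163, Adgre1 and Cx3cr1 by its construction. The number past the study's threshold, 2, was 0 with a pseudocount of 1 and with that filter, 1 with array weights, with globins left out, and with quantile normalization or median-of-ratios factors, and 1 to 2 with a library left out. The pseudocount of 1 shrinks fold changes of low genes by construction, and the other causes were not tested. Values near 0 turned: Cx3cr1 was -0.035 with median-of-ratios factors, -0.040 with quantile normalization and -0.056 to 0.14 with a library left out, and Mrc1 was -0.0012, -0.017 and -0.012 to 0.17. Cd4 was -0.018 with median-of-ratios factors and -0.013 to 0.13 with a library left out, and Cd79b was -0.011 with quantile normalization and -0.11 to 0.25 with a library left out. Over all genes, 4127 were called higher with FPKM as deposited, 2271 with median-of-ratios factors and 2615 with quantile normalization. Median-of-ratios factors ended the calls of C1qa, Msr1, Folr2, Cd48, Cd37, RT1-DMb, Tgfb1, Tfrc, Tie1 and Esam. The same-numbered libraries share only a number (correlations of their deviations from the group means -0.126 to 0.108). With the replicate number as a block, 2 of the 10 genes were called higher and 1 lower, 2 were past the study's threshold, and the median was 0.17. C1qa was the member whose call was lost (adjusted p = 0.0638). The depth limits Adgre1, Cd163 and Cx3cr1 most, which rest on 2 to 80 reads per library.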

Other observations

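The genes whose values over the 10 libraries lay nearest to the mean profile of the 10 macrophage genes, after each gene was centred on its group means and scaled, were Eif2ak1, Palmd, Myl7, Aldh1a3 and LOC100360508, at root mean square distances of 0.261, 0.395, 0.407, 0.482 and 0.492 among 11702 genes averaging 1 FPKM or more. The distances of the 10 genes themselves to that profile, of which each is a part, ran from 0.514 for C1qb to 1.40 for Adgre1, against a median of 1.42 over the 11702 genes. The points share library depth and composition, and the ranking is a description.

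Transcripts of Y chromosome genes were high in 2 of the 5 libraries of each group, so that the groups held the same number of such libraries, CON 1 and CON 4 and HG 1 and HG 3.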
